A study of Mus musculus with 2 samples.

Results

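The genes of glycolysis, of the pentose phosphate pathway and of the tricarboxylic acid (TCA) cycle, with their glucose and lactate transporters and the enzymes that handle pyruvate, were followed in a map of acetylated histone H3 lysine 27 (H3K27ac), a mark of active promoters and enhancers. They are 44 of the 21938 protein-coding genes of GENCODE mouse release M21 and are a list of names given for their place in these pathways. The cells were unstimulated bone marrow-derived macrophages of the C57BL/6J strain, and the mark was read by chromatin immunoprecipitation and sequencing. There was 1 group of 2 biological replicates, each begun with 10 ng of DNA, and no stimulated or mutant group. Both replicates carry the same donor entry, so the spread between them may leave out differences between animals. Sex and age were not collected and the developmental stage was unknown, per the labels.

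Glycolysis breaks glucose down to pyruvate, which is either turned into lactate or passed to the TCA cycle in mitochondria. The pentose phosphate pathway branches off at the first sugar phosphate and yields NADPH, which phagocytes use for the oxidative burst and for lipid synthesis. Macrophages are known to lean on glycolysis when activated by bacterial products and on mitochondrial oxidation when activated by interleukin-4. Many steps of glycolysis are shared out among isoenzymes coded by separate genes with different tissue preferences, so that a pathway can be complete without every isoform being in use.

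A gene counts as marked here if both replicates have a peak that touches a window of 1 kb to each side of at least 1 annotated start. Replicate 1 gave 29543 peaks and replicate 2 gave 29345. The fold of a peak is the authors' own linear ratio for that peak and serves to describe and rank peaks within their list, and where a pair of folds is given, replicate 1 comes first. The rank of a peak is its place by fold in the replicated list, a list of 32877 peaks that the authors made from both replicates together, as a percentage of that list, so that a low percentage means a high fold. Read depth is not given in the sources used here, and an unmarked gene need not lack the mark, since its signal may have missed the threshold the authors used. As a check of the label, 8 of 8 macrophage marker genes were marked, among them Csf1r, Adgre1 and Spi1. Of 36 markers of 9 other cell types, 1 was marked, the skeletal muscle gene Mylpf.

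Promoters of 3 pairs of isoenzymes, taken from the RefSeq promoter table on GRCm38.p6 and running from 250 bases before to 50 after the start, are printed because the members of a pair catalyse the same reaction and differed in the mark or in base composition. Capitals mark ACGTG, the core of the element bound by hypoxia-inducible factors, on either strand. Hexokinases Hk2 and Hk3 were both marked, Pgam1 and Ldha were marked, and their partners Pgam2 and Ldhb were not. The regions are chr6:82774405-82774704 (minus strand) for Hk2, chr13:55021336-55021635 (minus strand) for Hk3, chr19:41911621-41911920 (plus strand) for Pgam1, chr11:5803747-5804046 (minus strand) for Pgam2, chr7:46845554-46845853 (plus strand) for Ldha and chr6:142507908-142508207 (minus strand) for Ldhb.
Hk2: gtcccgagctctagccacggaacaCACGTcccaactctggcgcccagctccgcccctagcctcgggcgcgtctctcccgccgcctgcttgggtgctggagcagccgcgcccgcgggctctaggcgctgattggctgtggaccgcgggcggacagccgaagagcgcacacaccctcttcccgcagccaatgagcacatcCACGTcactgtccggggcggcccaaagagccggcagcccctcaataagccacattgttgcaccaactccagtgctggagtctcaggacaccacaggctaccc
Hk3: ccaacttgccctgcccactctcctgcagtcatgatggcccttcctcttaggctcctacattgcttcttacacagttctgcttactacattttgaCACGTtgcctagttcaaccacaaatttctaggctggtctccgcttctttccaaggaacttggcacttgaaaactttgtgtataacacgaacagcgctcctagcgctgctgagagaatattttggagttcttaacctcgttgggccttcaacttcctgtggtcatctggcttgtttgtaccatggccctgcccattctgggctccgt
Pgam1: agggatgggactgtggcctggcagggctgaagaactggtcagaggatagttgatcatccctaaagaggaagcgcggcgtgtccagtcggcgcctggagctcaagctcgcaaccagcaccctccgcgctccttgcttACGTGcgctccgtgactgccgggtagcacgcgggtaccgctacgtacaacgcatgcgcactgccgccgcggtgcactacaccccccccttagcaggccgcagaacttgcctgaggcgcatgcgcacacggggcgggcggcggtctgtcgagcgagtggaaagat
Pgam2: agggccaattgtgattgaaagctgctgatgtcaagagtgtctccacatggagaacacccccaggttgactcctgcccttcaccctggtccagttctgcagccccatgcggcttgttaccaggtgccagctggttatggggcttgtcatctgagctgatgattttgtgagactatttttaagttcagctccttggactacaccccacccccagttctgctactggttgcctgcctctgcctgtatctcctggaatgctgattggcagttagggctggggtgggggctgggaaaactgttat
Ldha: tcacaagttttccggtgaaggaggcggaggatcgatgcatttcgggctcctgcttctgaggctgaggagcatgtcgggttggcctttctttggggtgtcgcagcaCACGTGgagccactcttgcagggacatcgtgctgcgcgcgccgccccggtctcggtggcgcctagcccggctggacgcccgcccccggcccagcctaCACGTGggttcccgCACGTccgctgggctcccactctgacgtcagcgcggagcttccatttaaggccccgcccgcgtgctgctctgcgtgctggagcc
Ldhb: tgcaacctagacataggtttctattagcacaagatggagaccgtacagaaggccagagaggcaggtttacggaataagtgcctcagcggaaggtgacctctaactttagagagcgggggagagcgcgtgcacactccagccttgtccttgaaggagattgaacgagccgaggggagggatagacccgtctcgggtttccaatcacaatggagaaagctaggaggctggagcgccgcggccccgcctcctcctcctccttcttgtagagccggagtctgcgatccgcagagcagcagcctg
The Ldha promoter held the letters at 3 places, of which 2 are the palindrome CACGTG and so match on both strands. Hk2 held them at 2 places, Hk3 and Pgam1 at 1 each, and Pgam2 and Ldhb at none. The CpG ratio, the observed over the expected number of CpG dinucleotides, was 0.882 for Ldha and 0.948 for Pgam1. It was 0.696 for Ldhb and 0.0469 for Pgam2. The marked hexokinases also differed from each other, with 0.757 for Hk2 and 0.407 for Hk3.

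Of the 44 genes, 39 were marked (88.6%), against 39.4% of all protein-coding genes. The unmarked genes, none of which had a promoter peak in replicate 1 or 2, were Pgam2, Eno2, Pklr, Ldhb and Idh3a, and each replicate taken alone gave the same number, 39. All 3 transporters and all 4 pentose phosphate genes were marked, with 18 of 21 glycolytic genes, 3 of 4 genes of the pyruvate and lactate steps and 11 of 12 genes of the TCA cycle and its partners. Of the unmarked genes, 4 code for an isoform whose reaction is also catalysed by the product of a marked gene. Pgam2, the muscle form of phosphoglycerate mutase, has Pgam1; Eno2, the neuronal enolase, has Eno1; Pklr, the pyruvate kinase of liver and red cells, has Pkm; and Ldhb, the heart form of lactate dehydrogenase, has Ldha. Idh3a, the catalytic subunit of the NAD-dependent isocitrate dehydrogenase, has no such partner among the listed genes, and a peak of fold 2.88 appeared at its promoter in the pooled pseudoreplicated list alone.

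Another 53 genes of the same pathways gave a lower share, with 31 marked (58.5%), and the gap was widest in glycolysis. There, 3 of 11 other genes were marked, against 70.0% of the other transporters, 54.5% of the other pyruvate genes, and 71.4% each of the other pentose phosphate and TCA genes. The unmarked glycolytic genes included the hexokinase relative Hkdc1, the testis forms Gapdhs and Pgk2, the enolase relative Eno4, Bpgm, which makes the phosphoglycerate that tunes haemoglobin in red cells, and Tigar, a phosphatase of fructose bisphosphate. Tigar had a peak of fold 3.61 in replicate 1 and one of 2.78 in the pooled list, but none in replicate 2. Bpgm had one of 3.25 in the replicated and pooled lists, but none in the list of either single replicate. The best ranked of the marked were Pfkfb2, with folds of 9.81 and 9.38, and Pfkfb1, with 6.71 and 7.12, both genes for enzymes that set the level of the phosphofructokinase activator. Pfkfb1 shares its promoter with Apex2, and Pfkfb2 with Yod1 and Gm29427.

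Among the other transporters, the unmarked genes were Slc2a2 and Slc2a4, which code for the glucose carriers of liver and of muscle and fat, and the fructose carrier gene Slc2a5. Mpc2, a subunit of the mitochondrial pyruvate carrier, had folds of 28.0 and 28.3 at a promoter shared with Dcaf6, and the monocarboxylate transporter gene Slc16a7 had 27.2 and 29.0. Of the other pyruvate genes, the testis forms Ldhc and Pdha2 and the pyruvate dehydrogenase kinases Pdk2, Pdk3 and Pdk4 were unmarked, which leaves Pdk1 as the marked kinase of that family. Pdp2, a phosphatase that reverses the kinases' action, had 17.2 and 17.6, and Pdhb, a subunit of the dehydrogenase, had 9.68 and 7.52.

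The transketolase relatives Tktl1 and Tktl2 were the unmarked genes of the pentose phosphate group. Its best ranked other genes were Pgls, which opens the lactone made by the first enzyme, with 15.8 and 14.7, and Shpk, a sedoheptulose kinase that shares a promoter with Ctns, with 13.4 and 15.6. In the TCA group the unmarked genes were Suclg2, the malic enzyme gene Me1, the pyruvate carboxylase gene Pcx and Acod1, which makes itaconate from an intermediate of the cycle. Sdhc, a subunit of succinate dehydrogenase, had 18.2 and 17.1 at a promoter that it shares with another gene.

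**Figure D1:**
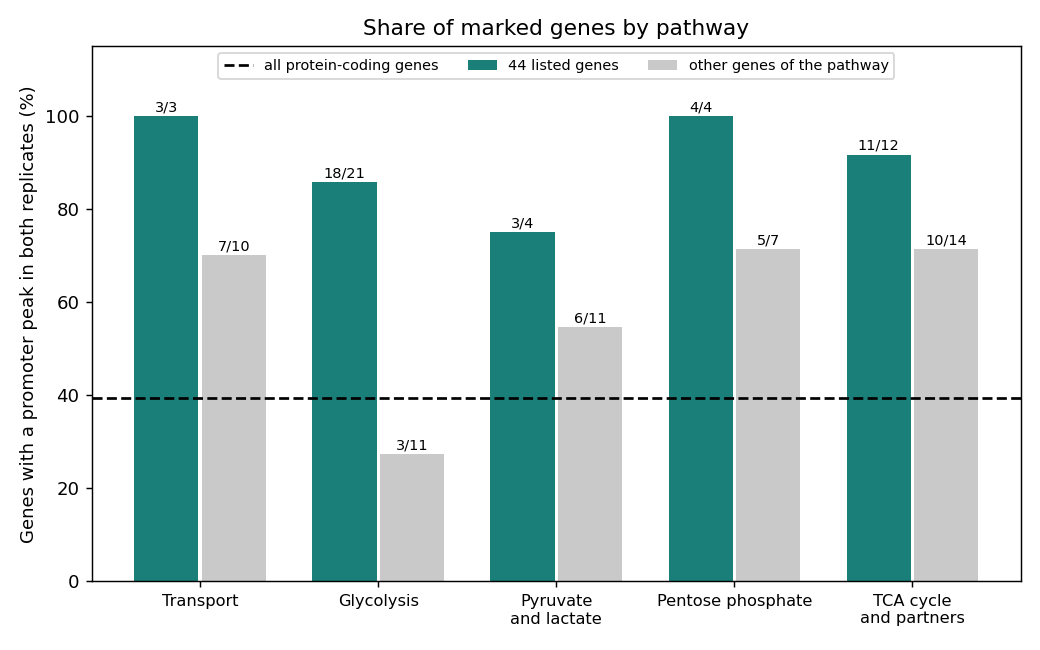
Share of genes with a promoter peak in both replicates (%), for the 44 listed genes (green) and for other genes of the same pathways (grey), with marked over total above each bar and all protein-coding genes as a dashed line. The green bars stand at 75.0% or more in every group, and the grey bar for glycolysis, 3 of 11, lies below the dashed line at 39.4%.

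The peaks of the marked genes lay towards the upper end of the list. The median rank of their highest promoter peak was 19.5%, against 24.7% for the 31 other marked pathway genes and 26.1% for the marked genes of the whole annotation. In the single replicates it was 19.2% and 18.5%, against 30.6% and 29.4% for all marked genes. Of the 39 genes, 14 (35.9%) had a promoter peak in the upper 10% of the replicated list, against 20.9% of all marked genes, and 3 (7.69%) lay in the lower 50%, against 17.5%. Those 3 were Aldoc, Pdha1 and Ogdh. These counts describe 2 libraries and were not tested.

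**Figure D2:**
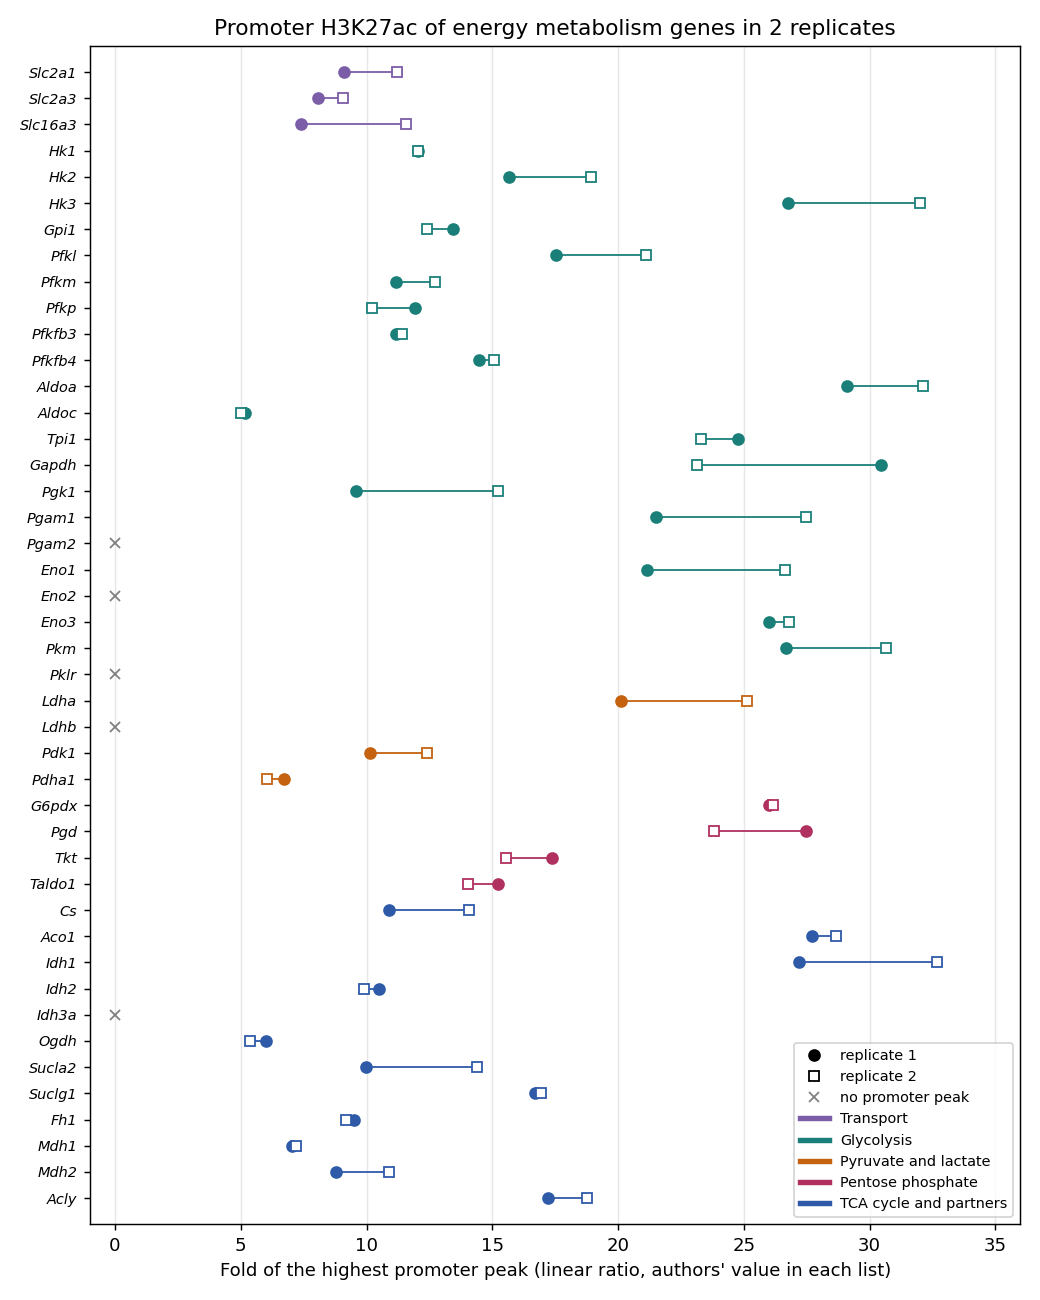
Fold of the highest promoter peak of each gene (linear ratio, the authors' value) in replicate 1 (filled circles) and replicate 2 (open squares), by pathway, with crosses at 0 for the unmarked genes. Folds ran from 5.16 to 30.5 in replicate 1 and from 5.03 to 32.7 in replicate 2, and the transporters stayed below 12.

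The replicates gave like folds for most genes, but not for all. Gapdh, the dehydrogenase of glyceraldehyde phosphate, had 30.5 and 23.1, Pgk1 had 9.58 and 15.2, and Slc16a3 had 7.40 and 11.6. Among Gapdh, Hk3 (26.7 and 32.0), Pkm (26.7 and 30.7), Aldoa (29.1 and 32.1), Aco1 (27.7 and 28.7) and Idh1 (27.2 and 32.7), no gene had the highest fold in both replicates. For 5 genes the highest peaks of the replicates were different, non-overlapping peaks, namely Slc16a3, Pfkp, Pfkfb3, Pfkfb4 and Pdha1.

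The 3 listed transporters had the lowest ranks of the listed groups, with a median of 31.5% and a range of 27.7 to 33.8% in the replicated list. The 7 other marked transporter genes had a median of 10.9%. Slc2a1, the widely used glucose transporter gene, had folds of 9.12 and 11.2, and Slc2a3, its high-affinity relative, had 8.09 and 9.05. Slc16a3, which exports lactate, had a pair of peaks on either side of its RefSeq start, with 6.88 and 11.6 at the first and 7.40 and 10.4 at the second. In the replicated list and in replicate 1 all 3 ranked below the median of all marked genes, while in replicate 2 Slc2a1 (28.8%) and Slc16a3 (27.7%) ranked slightly above its 29.4%.

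At the entry to glycolysis, hexokinases attach the phosphate that holds glucose in the cell. Hk3, an isoform of white blood cells, had the widest promoter peak of all the listed genes, 7285 bp in replicate 1 and 8113 bp in replicate 2, at a promoter that is poor in CpG. Hk2, the isoform that responds to insulin and growth signals, had folds of 15.7 and 18.9. Hk1, the most widely expressed, had 12.0 and 12.1 at an internal start. Gpi1, which makes fructose phosphate from glucose phosphate, had 13.4 and 12.4.

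The committed step is catalysed by phosphofructokinase, whose 3 subunit genes were all marked. Pfkl, the liver form, had 17.6 and 21.1, Pfkm, the muscle form, had 11.2 and 12.7, and Pfkp, the platelet form, had 11.9 and 10.2. Pfkl thus lay above both relatives in each replicate, while Pfkm and Pfkp overlapped. The bifunctional enzymes that make and break the activator of this step, Pfkfb3 and Pfkfb4, had 11.2 and 11.4 and 14.5 and 15.1.

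From aldolase onwards the folds were the highest of glycolysis, apart from Hk3 and with Aldoc and Pgk1 as exceptions. Aldoa, the main aldolase outside liver and brain, had 29.1 and 32.1, while Aldoc, the brain aldolase, had 5.16 and 5.03, the lowest of the marked glycolytic genes. Tpi1, which interconverts the triose phosphates, had 24.8 and 23.3, and Pgam1, which moves the phosphate on phosphoglycerate, had 21.5 and 27.5. Pgk1, the first step that yields ATP, was lower in both replicates than these. The ubiquitous enolase gene Eno1 had 21.2 and 26.6, and Pkm, whose product makes pyruvate, had a downstream peak of 26.7 and 30.7 with an upstream peak of 17.7 and 15.3.

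Eno3, the muscle enolase, was marked with 26.0 and 26.8 although its product is known from muscle. The peak ended 124 bp before the gene's 5′ end in replicate 1 and 131 bp before it in replicate 2, covered no base downstream, and reached the promoter window of the neighbouring profilin gene Pfn1. In the replicated list the same peak was 7105 bp wide and also reached the window of Rnf167. Without peaks that reach another gene's window, Eno3 was not marked, so the peak cannot be assigned to Eno3 from its position.

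At the pyruvate step, Ldha, which turns pyruvate into lactate, had 20.1 and 25.1. Pdk1, which shuts down pyruvate dehydrogenase, had 10.2 and 12.4, and Pdha1, the catalytic subunit of that dehydrogenase, had 6.71 and 6.03. The fold of Ldha was thus above that of Pdha1 in each replicate, by rank 7.49% against 52.2% in the replicated list.

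The 4 listed pentose phosphate genes had the best median rank of the listed groups, 9.97%. Their range of 4.55 to 19.5% did not overlap that of the 3 listed transporters. The 5 other marked pentose phosphate genes had a range of 15.4 to 51.5%, which does overlap it. Their median was 19.9%, a lower place than the 10.9% of the 7 other marked transporter genes. G6pdx, the first and rate-limiting enzyme, had 26.0 and 26.1, and Pgd, the second NADPH-yielding enzyme, had 27.5 and 23.8. Tkt and Taldo1, the enzymes that shuffle carbons between sugars, had 17.4 and 15.6 and 15.2 and 14.0. Both listed genes of the oxidative, NADPH-yielding branch were above both listed genes of the non-oxidative branch in each replicate. This order was not shared by Pgls, which acts on the product of the first enzyme. Pgls had 15.8 and 14.7, below Tkt but above Taldo1 in each replicate. The G6pdx peak spans 6494 and 6572 bp and reaches the promoter window of Ikbkg as well, so it cannot be assigned to G6pdx alone.

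The enzymes of the TCA group work partly in the cytosol. Aco1, the cytosolic aconitase that doubles as an iron sensor, had 27.7 and 28.7. Idh1, the cytosolic NADPH-yielding isocitrate dehydrogenase, had 27.2 and 32.7, and Acly, which makes cytosolic acetyl-CoA from citrate, had 17.2 and 18.8. Mdh1, the cytosolic malate dehydrogenase, had 7.06 and 7.21, below the other 3 in both replicates.

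Of the mitochondrial enzymes, Suclg1, a subunit of succinyl-CoA ligase, came first with 16.7 and 16.9. The citrate synthase gene Cs had 10.9 and 14.1, Idh2 had 10.5 and 9.89, and Sucla2, the partner subunit of Suclg1, had 9.98 and 14.4. The fumarase gene Fh1 had 9.49 and 9.18, the malate dehydrogenase gene Mdh2 had 8.78 and 10.9, and Ogdh, the oxoglutarate dehydrogenase, had 6.02 and 5.36. The peaks of Ogdh and Pdha1, whose complexes are both dehydrogenases fed by a keto acid, shared the same rank, 52.2%. All of these 7 genes were below Aco1 and Idh1 in both replicates. The grouping by compartment was made after the values were seen.

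Width followed a similar order. The highest promoter peak of the marked genes had a median width of 1341 bp in replicate 1 and 1490 bp in replicate 2. The mean of these medians was 1415.5 ± 105 (SD, n = 2). For all marked genes the medians were 1012 and 1116 bp. The gap was smaller in the replicated list, with 1378 bp against 1247 bp for all marked genes. In the replicated list, median widths were 2980.5 bp for the pentose phosphate genes, 2819.5 bp for glycolysis, 1212 bp for the pyruvate step, 1026 bp for the TCA group and 697 bp for the transporters. Peaks of 5 kb or more in that list were found at 5 genes (12.8%), against 4.98% of all marked genes. They were Hk3 (8559 bp), Eno3 (7105 bp), G6pdx (6748 bp), Hk1 (5643 bp) and Pkm (5325 bp). In the single replicates the Eno3 peak was narrower, 2378 and 2901 bp, and the highest Hk1 peak had 4304 and 5286 bp. The peaks of Eno3 and G6pdx also reach the windows of other genes, so their width cannot be assigned to these genes alone. A high fold did not require a wide peak, as Aldoa (1677 bp) and Aco1 (1301 bp) show, and Hk1 was wide at a rank of only 23.5%.

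**Figure D3:**
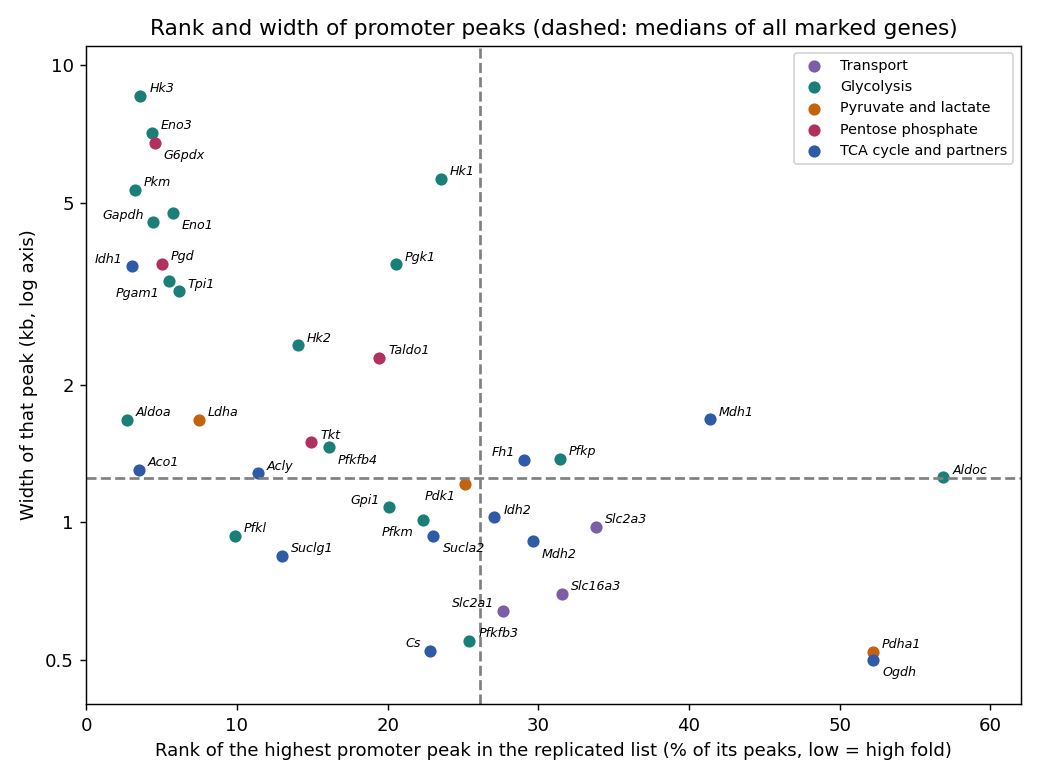
Rank by fold of the highest promoter peak in the replicated list (% of its peaks, low meaning high fold) against the width of that peak (kb, log axis) for the 39 marked genes, coloured by pathway, with medians of all marked genes as dashed lines (26.1% and 1247 bp). Hk3, Eno3, G6pdx and Pkm sit at the upper left, Aldoa and Aco1 are high in fold but narrow, and Aldoc, Pdha1 and Ogdh lie at the far right.

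In 4 short glycolytic genes the mark covered much of the transcribed body. Peaks lay over 82.3% and 69.7% of Tpi1 (3711 bp long), over 69.0% and 69.5% of Pgam1, over 67.8% and 62.8% of Aldoa and over 61.3% and 63.0% of Gapdh. Other short genes had less, with peaks over 15.2% and 12.6% of Aldoc (4814 bp) and over none of Eno3 (5312 bp). The median over the 39 marked genes was 14.2% and 13.1%, against 5.82% and 6.28% for all marked genes, whose median length was 23004 bp, close to the 23137 bp of the listed ones. In the long gene Aco1, peaks covered 1.31% and 1.45%. Around the 5′ end, within 2.5 kb, the 37 genes with a peak in the nearest 1 kb had a median of 1322 and 1266 bp covered downstream, and of 693 and 625 bp upstream. More was covered downstream than upstream in 27 of the 37 (73.0%) in each replicate, against 62.3% and 63.8% of all genes with such a peak.

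**Figure D4:**
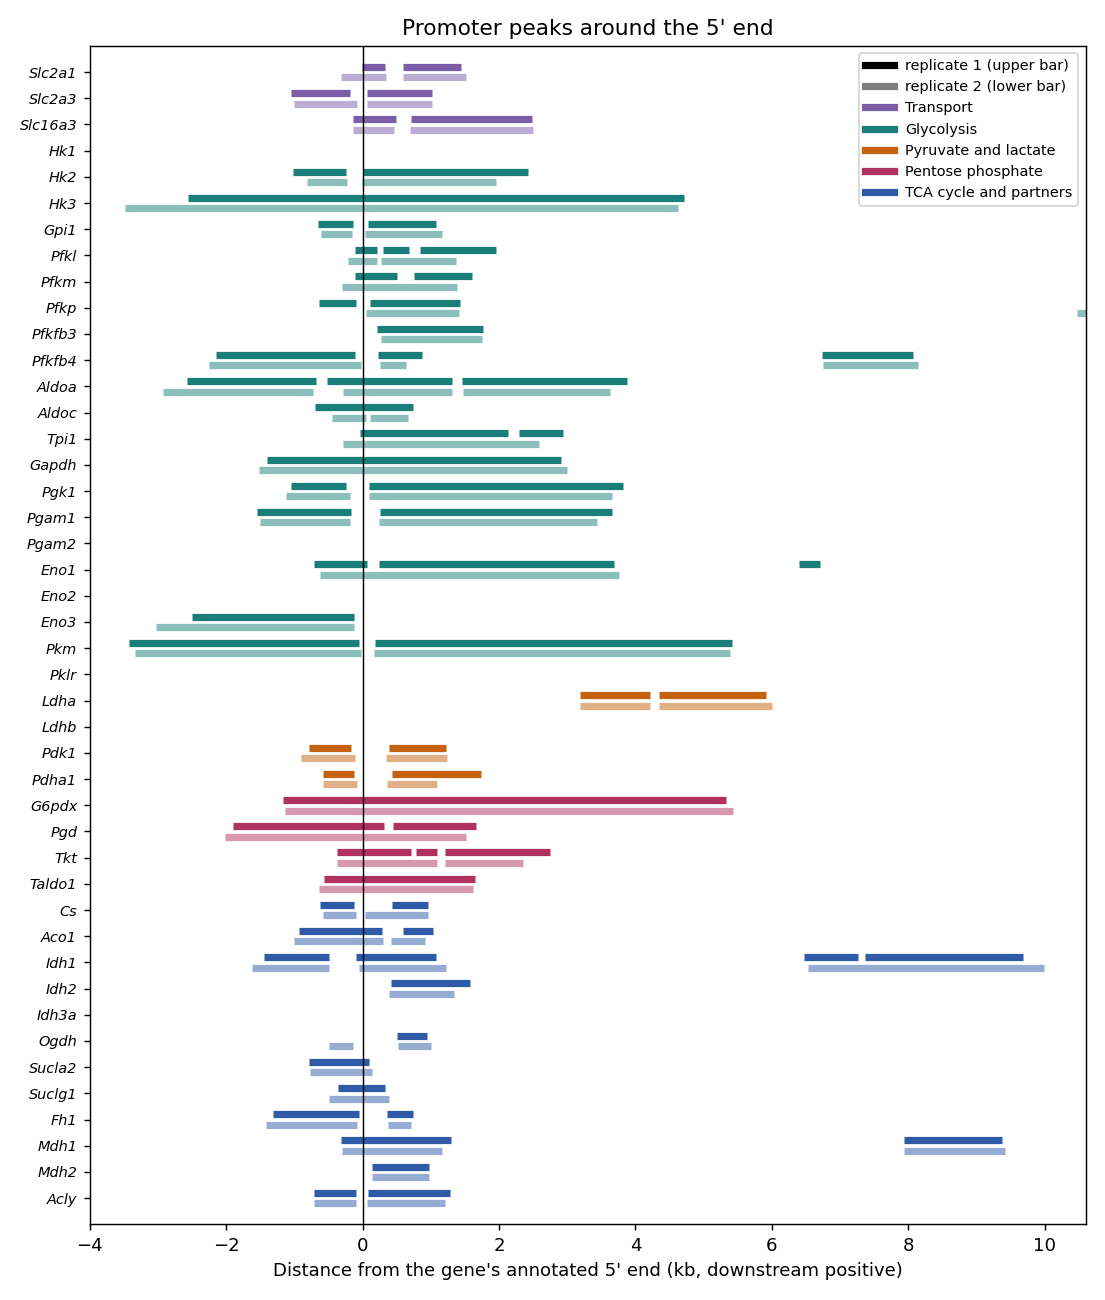
Promoter peaks of each gene drawn to scale around its annotated 5′ end (kb, downstream positive), with replicate 1 as the upper and replicate 2 as the lower, lighter bar, coloured by pathway and cut at the edges of the plot. Blocks over Hk3, G6pdx and Gapdh run through the 5′ end, gaps stand at the 5′ end of Pgam1, Pgk1 and Pkm, and the peaks of Ldha begin over 3 kb downstream, while those of Hk1 lie beyond the plot.

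Some of these promoters had a gap between peaks at the start of transcription, though more had the start inside a peak. The annotated 5′ end lay inside a peak in both replicates in 19 of 37 genes (51.4%). It lay between an upstream and a downstream peak in 11 (29.7%). Among the 7922 protein-coding genes with a peak within 1 kb of the 5′ end, the shares were 41.3% and 19.0%. Those 11 were Slc2a3, Gpi1, Pfkfb4, Pgk1, Pgam1, Pkm, Pdk1, Pdha1, Cs, Fh1 and Acly. Measured at RefSeq starts instead, 12 of 53 starts with a peak within 1 kb lay between peaks (22.6%), against 19.2% of such starts over all genes, which is near the background. The first RefSeq start of Ldha was one of them, with peaks of 11.5 and 11.7 before it and of 20.1 and 25.1 after it. The upstream peak at Pgam1 had 12.0 and 12.7, also lower than the downstream one.

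The start that carried the mark differed among the isoforms of a gene. The 44 genes have 114 separate start windows, of which 48 (42.1%) were marked, against 22.3% of the start windows of all genes. Windows that hold a RefSeq start were marked in 39 of 46 cases (84.8%), against 38.3% of such windows of all genes. Those without one were marked in 9 of 68 (13.2%), against 11.8%, which is near the background. In 2 genes the mark was found at internal starts alone. Hk1 had no peak at its 5′ end, which is a RefSeq start, and was marked in a window around a start 39366 bp downstream that also holds a RefSeq start, and weakly at one 52141 bp downstream. Ldha had no peak at its annotated 5′ end and was marked at a group of starts 4364 to 7512 bp downstream, which hold its RefSeq starts.

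Several genes were marked at more than 1 start. Idh1 had 19.8 and 22.2 at its 5′ end and 27.2 and 32.7 at a start 7319 bp downstream, so the internal start was the stronger in both replicates. Pfkfb3 had 9.56 and 11.4 at the 5′ end and 11.2 and 10.4 at starts from 51976 bp downstream, with no order that held in both. Pfkfb4 had 13.8 and 15.1 at the 5′ end, 14.5 and 14.9 at a start 7110 bp downstream and 7.40 and 9.55 at one 25602 bp downstream. Pfkp had 11.9 and 9.22 at the 5′ end and 8.09 and 10.2 at a start 12127 bp downstream. Mdh1 had 7.06 and 7.21 at the 5′ end and 6.50 and 6.45 at a start 8160 bp downstream.

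In other genes a RefSeq start had no peak. Sucla2 was marked at its 5′ end, near a start of another gene, and its RefSeq start, 27467 bp downstream, had no peak within 1 kb in either replicate. Pfkm was marked at the 5′ end near Senp1, and its RefSeq starts from 15882 bp downstream were without a peak. Slc2a3 was marked at its 5′ end, and its windows at 21683, 58720 and 68464 bp downstream were not.

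A start of another protein-coding gene lies within 1 kb of a start of 7 of the genes, so that a peak reaching both windows cannot be assigned to one of the pair. They are Sucla2 and the pairs of Pfkm with Senp1, Aldoa with Fam57b, G6pdx with Ikbkg, Idh1 with Pikfyve, Mdh1 with Wdpcp and Mdh2 with Styxl1. The highest peaks of Aldoa and Idh1 reached no other gene's window, and neither did a weaker internal peak of Mdh1. Eno3 has no such start nearby, but its peak reaches the window of Pfn1. Of the 7 genes, 4 are TCA genes (Idh1, Sucla2, Mdh1 and Mdh2), and without them 7 of 8 TCA genes were marked. Without the 7 genes, 32 of 37 were marked in all.

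Most of the promoters were rich in CpG. The RefSeq promoter table matched 42 of the 44 genes, all but Slc2a3 and Idh3a. Of the 42, 32 had a promoter with a CpG ratio of at least 0.6, and 30 of those were marked (93.8%), against 62.6% of all genes of that kind. The exceptions were Eno2 and Ldhb. The promoter whose CpG was measured is not always the marked one, as Sucla2 is counted here through a RefSeq promoter without a peak. The other 10 genes were CpG-poor, and 8 of them were marked (80.0%), against 18.3% of all CpG-poor genes. Those 8 were Hk3, Pfkm, Aldoc, Gapdh, Eno3, Aco1, Idh2 and Acly, with Pgam2 and Pklr as the unmarked ones. Pfkm and Eno3 were not marked without peaks that reach another gene's window. Acly (0.525), Idh2 (0.571) and Gapdh (0.501) lay just under the threshold, while Eno3 (0.128) and Pgam2 (0.0469) lay far below it.

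Letters of known elements were counted on both strands of the 63 RefSeq promoters of these genes, some of which overlap, beside the 32851 promoters of the whole table. ACGTG stood in 26 of 63 (41.3%), against 19.6% of all. Among CpG-rich promoters alone it stood in 20 of 42 (47.6%), against 28.9%. These matches include every RefSeq promoter of Ogdh, several of which overlap, and more than 1 each of Aldoa and Pfkfb3. No count by gene was made among CpG-rich promoters, so the share is raised by repeated sequence. By gene it was present in 18 of 42 (42.9%), against 21.8% of all genes in the table, namely in Slc2a1, Slc16a3, Hk1, Hk2, Hk3, Pfkm, Pfkfb3, Aldoa, Aldoc, Gapdh, Pgk1, Pgam1, Pkm, Ldha, G6pdx, Ogdh, Mdh1 and Acly. CACGTG, an E box that contains ACGTG, stood in 9.52%, against 7.15%.

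The GC box GGGCGG stood in 60.3% of these promoters, against 35.7% of all, and among CpG-rich promoters in 81.0%, against 72.3%. GAGGAA, a purine-rich core bound by ETS factors such as PU.1, stood in 19.0%, against 28.3%, and in 11.9% of the CpG-rich ones, against 23.9%. TATAAA stood in 4.76%, against 13.6%, in Slc2a1, Eno2 and Pklr, and the AP-1 letters TGANTCA in 1.59%, against 7.81%. Among CpG-rich promoters these last gaps were small, with 4.76% against 5.98% for TATAAA and 2.38% against 3.46% for TGANTCA. A match of letters is not a bound site, and the mark was not measured at the scale of a motif.

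Distal peaks, which overlap between replicates and keep over 1 kb away from all protein-coding starts, were counted within 25 kb of each gene's 5′ end. The 44 genes had a mean of 1.23 and a median of 1, against a mean of 0.495 over all protein-coding genes, and 26 (59.1%) had at least 1, against 26.4%. Marked genes have more such peaks in general, so the nearer comparison is 25 of the 39 marked genes (64.1%), against 45.7% of all marked genes, with means of 1.36 and 0.913. The 54 peaks had a median fold of 6.45 in replicate 1, against 6.88 for all 15069 distal peaks, a difference that was not tested. For 40 of the 54 the gene in question was the nearest, and 19 lay inside its own introns or exons.

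By pathway, all 3 transporters, 12 of 21 glycolytic genes, 3 of 4 pyruvate genes, 3 of 4 pentose phosphate genes and 5 of 12 TCA genes had a distal peak. Hk2 had the strongest pair, in its own intron 10169 bp downstream (24.9 and 30.0) and in the intergenic region 23354 bp upstream (25.3 and 24.3), both with folds above those of its promoter. Slc2a1 had a peak of 4383 bp in its intron 18065 bp downstream, with 20.8 in both replicates, also above its promoter. Gpi1 had one 2865 bp upstream with 21.0 and 19.9, and Ldha had 18.4 and 20.8 at 9004 bp and 13.6 and 16.6 at 2857 bp upstream of its annotated 5′ end. These genes thus had a distal peak whose fold was near or above that of their promoter.

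Pgd had 12.9 and 14.0 in an intergenic peak of 4563 bp 5483 bp upstream, and Cs had 10.8 and 10.4 in its own intron 7364 bp downstream. Several other distal peaks of high fold lay in or near a neighbouring gene. Hk3 had 5 distal peaks in replicate 1, the strongest 19414 bp upstream in an intron of Uimc1 with 16.6 and 12.4. In replicate 2 the same stretch held 2 distal peaks and the promoter peak, which overlapped the 2 nearest. For Slc2a3 the peak 9599 bp upstream (14.2 and 17.4) was nearer to Foxj2, and for Eno1 the peak 24049 bp upstream (14.5 and 13.9) was nearer to Car6. The Pfkm peak 3186 bp upstream (16.9 and 19.6) lies in an exon of Senp1 and is nearer to it. A peak near a gene is not shown to act on it. Among the unmarked genes, Pgam2 alone had a distal peak, 11136 bp downstream in an intron of the nearer gene Dbnl, with 6.37 and 6.03.

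**Figure D5:**
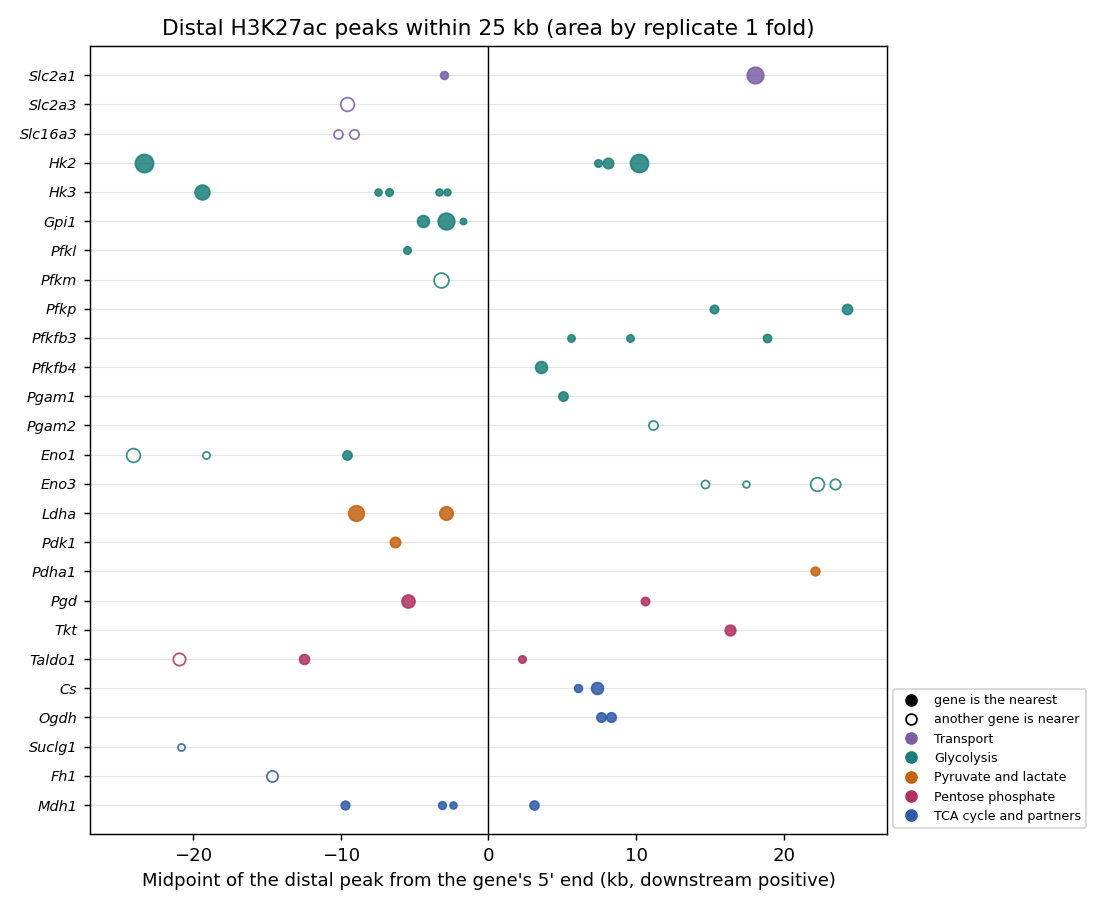
Distal peaks within 25 kb of the 5′ end of the 26 genes that have any (kb, downstream positive), with circle area in proportion to the fold in replicate 1, filled where the gene is the nearest and open where another gene is nearer. The largest circles belong to Hk2, Gpi1 and Slc2a1, and the row of Hk3 holds 5 peaks of replicate 1, all upstream.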

How the data were processed

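H3K27ac was profiled in 2 replicates of unstimulated macrophages. Each replicate has its own deposited peak list, made from that library alone, per the text files of the authors; the replicated and the pooled pseudoreplicated list come from both libraries. In each deposited list the authors give a peak's fold as a linear ratio and its q-value on a −log10 scale. Peaks are on mm10; the aligner, caller and read depth are not given in the sources used here, so no interval for counting error could be made. Folds were not compared between lists by any test.

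Genes and starts came from GENCODE M21 on GRCm38 patch 6, without mitochondrial genes, and promoters from RefSeq. Of 2 annotation entries named Aldoa, the one with more transcripts was used. An overlap was 1 bp or more. Peaks were ranked by fold in their list. Distal peaks are those of replicate 1 that overlap a peak of replicate 2 and lie more than 1 kb from any protein-coding start. Positions are 1-based. All listed genes were named; of the other pathway genes, the 2 best ranked marked genes of each group and all unmarked ones; genes sharing a promoter or nearer to a described distal peak were named with them. Some genes that the rule takes are not reported here. The members and lists were chosen with earlier results of these data known, and no list was tested. Alternatives were other windows, starts, thresholds, lists and distances, and each replicate alone. The overlap code was tested on simulated intervals. Python 3.11.15, numpy 2.4.6, pandas 2.3.3 and matplotlib 3.10.9 were used.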

Additional observations from a re-analysis of the deposited data

How the results depend on the processing

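The count of 39 marked genes was 39 in windows of 500 bp and 2.5 kb, at a −log10 q of at least 5, with 200 bp of the window covered, at starts of protein-coding transcripts, in the replicated list and in each replicate alone. It was 37 with the 5′ end alone (without Hk1 and Ldha), 40 in the pooled list (with Idh3a), and 34 without peaks that reach another gene's window (without Eno3, G6pdx, Mdh2, Pfkm and Sucla2), an alternative chosen after seeing the data. Without genes that share a promoter, 7 of 8 TCA genes were marked, in place of 11 of 12, as fewer genes were counted. Of the other pathway genes 20 of 41 were marked, in place of 31 of 53. For these the share fell as well as the number counted, so their 58.5% depends in part on shared promoters. The marked other pathway genes numbered 31 and 32 with either replicate left out.

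The median rank of 19.5% was 16.7% when ranked by −log10 q, 17.8% without genes that share a promoter, and 18.5 to 19.2% with either replicate left out. The median width of 1415.5 bp was 2487.5 bp when all peaks in the window were added up, and 1341 to 1490 bp with either replicate left out. The mean of 1.23 distal peaks was 0.795 within 10 kb, 3.75 within 100 kb, 1.52 in the replicated list, 0.909 where the gene is the nearest, 1.14 at a −log10 q of at least 5, 1.55 within 25 kb of any start (chosen after seeing the data) and 1.36 to 1.45 with either replicate left out. Genes with a distal peak numbered 40 within 100 kb, in place of 26, and 27 with either replicate left out. No paired analysis was possible because the series holds 1 group. With 2 replicates and no depth, a weak or missing peak is limited by the authors' threshold.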
